A study of Homo sapiens with 12 samples.

Results

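The mRNA levels of 35 genes of the transforming growth factor beta (TGF-beta) and bone morphogenetic protein (BMP) pathway were followed in a human liver cancer line exposed to acriflavine. The list was chosen by function, with earlier results of these data known. It covers ligands, latent binding proteins, receptors, SMAD proteins, corepressors and feedback targets. All 35 symbols matched 1 row each of the 63152 gene rows, and all 35 were among the 16839 genes with enough counts to be tested. SMAD9 reached the minimum of this filter through the 5 µM libraries alone, and INHBA and FST through treated libraries alone. A rise was therefore the only change that SMAD9 and INHBA could have shown at 5 µM. FST was over the minimum in its 2.5 µM libraries too, so its test did not depend on its 5 µM level.

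Acriflavine, an antiseptic made of acridine dyes, binds DNA, and the series is titled for its effect on the epithelial-to-mesenchymal transition (EMT). Cells were cultured to near confluence and collected after 24 h in fresh medium. The groups were control cells, cells with 2.5 µM acriflavine and cells with 5 µM acriflavine, with 4 libraries each. One label calls the controls untreated, whereas the treatment protocol describes the vehicle DMSO. All 12 libraries carry the same cell label, HepG2 (a hepatoblastoma line), and their descriptions name HepG2S1, a derivative selected over months in rising doses of the kinase inhibitor sorafenib. By that description the controls are drug-selected cells too. The design text calls the libraries biological replicates, and nothing says that they came from separate cultures, so p-values measure the spread between these libraries.

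In this pathway, dimeric ligands are secreted, the TGF-beta ligands in latent complexes tethered to matrix by the LTBP proteins. A ligand joins type II and type I receptors, and the type I receptor phosphorylates receptor SMADs, mainly SMAD2 and SMAD3 for TGF-beta and activin and SMAD1, SMAD5 and SMAD9 for BMPs. These bind SMAD4 and act in the nucleus, where SKI, SKIL and the TGIF proteins repress. SMAD6, SMAD7, BAMBI and PMEPA1 are targets of the pathway that dampen it. In liver, TGF-beta is known for growth arrest of hepatocytes and for fibrosis, and BMP signalling for control of iron.

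Each library held between 10733567 and 15116842 counts, a range that the 5 µM group spanned. Within groups, libraries correlated at 0.992 to 0.994 across genes, above the highest value between groups, 0.972. The hepatic identity of the label was not seen in these counts. Of 10 hepatic markers, 4 reached 1 CPM (a read count scaled to library size) at 5 µM and 0 in the controls, and the 10 summed to 0.879 to 1.69 CPM (controls), 0.985 to 2.31 CPM (2.5 µM) and 9.19 to 12.2 CPM (5 µM). ALB and AFP had 0 counts in the controls. Of 8 fibroblast markers, 4 were above 1 CPM in each group (DCN, LUM, COL1A1 and PDGFRB), and the 8 summed to 619 to 769 CPM (controls), 548 to 605 CPM (2.5 µM) and 557 to 599 CPM (5 µM). At 5 µM against control, 2 of these 4 were called higher (COL1A1, PDGFRB) and 2 lower (DCN, LUM), while COL1A2, COL3A1 and THY1 had 0 control counts. Endothelial markers summed to 0.169 to 0.537 CPM (controls), 0.616 to 1.44 CPM (2.5 µM) and 7.13 to 8.69 CPM (5 µM), and blood markers to 0.448 to 1.18 CPM (controls), 0.833 to 4.85 CPM (2.5 µM) and 3.56 to 5.27 CPM (5 µM). Their part in the results was not tested. In bulk RNA, fewer cells of a type and less RNA per cell cannot be told apart.

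Levels below are CPM on the TMM-scaled library size, given as mean ± SD over 4 libraries. A log2 fold change is given ± its standard error (SE), with the adjusted p of edgeR's quasi-likelihood test over all genes tested, called under 0.05. At 5 µM against control, 26 of the 35 genes were called higher and 5 lower, where 38.7% of all genes tested were called higher and 39.4% lower. That is 31 of 35 called (88.6%), beside 78.2% of all genes, so being called was itself common. Leaving aside SMAD9, INHBA and FST, 23 of 32 were called higher and 5 lower. The median log2 fold change of the 35 was 0.51, beside -0.01 for all genes. For 28 of 35 genes (80%) the 5 µM and control values did not overlap, which held for 70.8% of all genes. At 2.5 µM against control, 16 were called higher and 8 lower, with 30.7% and 28.5% of all genes as background and 59.1% called in all. Without SMAD9, INHBA and FST, 14 of 32 were higher and 8 lower. The 8 lower calls became 5 without control replicate 1 and 5 with library size scaling. The 2.5 µM and control values of 22 genes (62.9%) did not overlap, beside 50.5% of all genes, and the median was 0.19 beside 0.02. Between the doses (5 µM against 2.5 µM), 25 were higher and 5 lower, where 33.6% of all genes were higher, 34.8% lower and 68.4% called. Without SMAD9, INHBA and FST, 22 of 32 were higher and 5 lower in that comparison. The 5 lower calls became 3 with library size scaling. There, 28 genes (80%) did not overlap, beside 62.1% of all genes. The 3 comparisons share libraries and are not independent of each other.

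Library size scaling without composition factors moved the median of all genes by 0.13 at 5 µM against control, and a correction for gene GC content by -0.12. With library size scaling 28 of the 35 genes were called higher and 4 lower, where 7641 of the 16839 genes were called higher and 5464 lower. With the GC correction 24 of the 35 were called higher and 5 lower, where 5670 of all genes were called higher and 7830 lower.

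**Figure D1:**
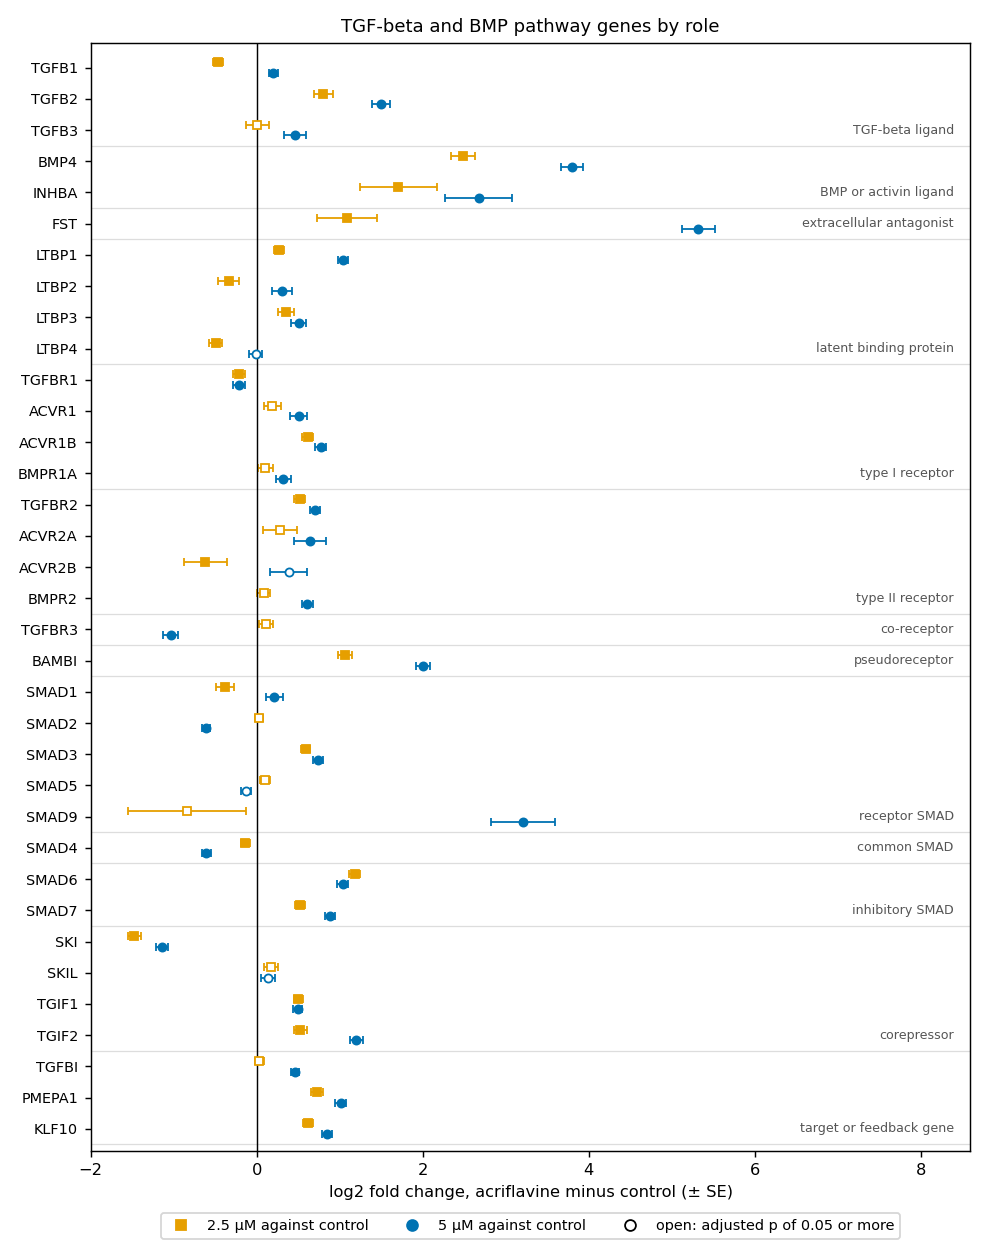
Log2 fold change against control (horizontal axis, ± SE) of the 35 genes, grouped by role down the page, at 2.5 µM (orange squares) and 5 µM (blue circles), from 4 libraries a group. Filled symbols passed an adjusted p of 0.05: 24 genes at 2.5 µM and 31 at 5 µM, with FST and BMP4 farthest right at 5 µM and SKI farthest left at 2.5 µM.

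All 5 ligand genes were called higher at 5 µM against control, beside 38.7% of all genes tested. INHBA, which passed the filter through treated libraries alone, could only have shown a rise. The calls of TGFB1 and TGFB3 were lost with the GC correction. TGFB1 was called lower at 2.5 µM and higher at 5 µM. TGFB1 (ENSG00000105329), the ligand most studied in fibrosis and EMT, had 128, 112, 138 and 121 CPM in the controls, 94.9, 93.2, 83.8 and 89.9 CPM at 2.5 µM, and 141, 148, 151 and 133 CPM at 5 µM. The 2.5 µM libraries were all below the controls, while the 5 µM and control values overlapped. The log2 fold change was -0.46 ± 0.06, adjusted p = 2.33e-08, at 2.5 µM, and 0.20 ± 0.06, adjusted p = 0.00193, at 5 µM against control. The 5 µM rise did not hold with the GC correction (-0.016, adjusted p = 0.742, with adjusted p of 2.1e-06 to 0.742 over its alternatives), so its direction at 5 µM against control depends on that setting. Between the doses TGFB1 was higher at 5 µM by 0.66 ± 0.06, adjusted p = 4.69e-12. In the GENCODE annotation (GRCh38) 6.64% of its exon bases lie opposite exons of HNRNPUL1, which had 22698 counts over the 5 µM libraries and 15137 over the controls, and no source says that reads were counted by strand.

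TGFB2 (ENSG00000092969), an isoform needed in heart and eye development, rose at each dose. Its values were 5.39, 4.18, 5.19 and 5.42 CPM in the controls, 8.78, 9.29, 8.48 and 8.47 CPM at 2.5 µM, and 14.4, 14.2, 13.9 and 14.5 CPM at 5 µM. The 3 groups did not overlap, and each step was called, with log2 fold changes of 0.80 ± 0.11, adjusted p = 3.43e-07, for 2.5 µM and 1.5 ± 0.11, adjusted p = 1.56e-14, for 5 µM against control. In the GENCODE annotation, 26.62% of the TGFB2 exon bases are shared on the same strand with TGFB2-OT1, which was not among the gene rows. Whether reads from TGFB2-OT1 were counted for TGFB2 is not known. TGFB3, an isoform known for palate closure, was at 5.05 ± 0.332 CPM in the controls, 5.09 ± 0.749 CPM at 2.5 µM and 6.91 ± 0.587 CPM at 5 µM. Its 5 µM change was 0.46 ± 0.13, adjusted p = 0.00164, which was not called with the GC correction (0.23, adjusted p = 0.0992), and at 2.5 µM the change was 0.01 ± 0.14, adjusted p = 0.959.

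BMP4 (ENSG00000125378), a BMP ligand active in mesoderm and liver bud development, showed the largest fold change of these 5 ligand genes, though not of all pathway ligands tested. It had 1.25, 1.32, 1.34 and 1.44 CPM in the controls, 7.57, 7.11, 7.63 and 7.80 CPM at 2.5 µM, and 18.5, 17.9, 18.8 and 19.6 CPM at 5 µM. No library of one group reached another group's range. Log2 fold changes were 2.49 ± 0.15, adjusted p = 9.52e-16, at 2.5 µM, 3.8 ± 0.13, adjusted p = 3.65e-23, at 5 µM against control, and 1.32 ± 0.09, adjusted p = 2.4e-14, between the doses. INHBA (ENSG00000122641), the subunit of activin A, had few counts, 12 over the controls, 45 over the 2.5 µM libraries and 84 over the 5 µM libraries. Its levels were 0.312, 0.293, 0.358 and 0 CPM in the controls, 0.757, 0.422, 1.31 and 0.807 CPM at 2.5 µM, and 1.78, 1.80, 1.17 and 1.69 CPM at 5 µM, and 1 control library had 0 counts. The treated values lay above the controls at each dose (log2 fold change 1.71 ± 0.47, adjusted p = 0.0022, at 2.5 µM and 2.67 ± 0.41, adjusted p = 4.2e-07, at 5 µM), and the 2 doses overlapped with each other.

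FST (ENSG00000134363) encodes follistatin, a secreted protein that binds activin and blocks it. Its values were 0.547, 0.22, 0.716 and 0.592 CPM in the controls, 1.44, 0.844, 1.00 and 1.08 CPM at 2.5 µM, and 17.3, 17.3, 23.2 and 24.0 CPM at 5 µM. The step to 5 µM was by far the larger, with 25 counts over the controls, 60 over the 2.5 µM libraries and 1096 over the 5 µM libraries. The log2 fold change was 5.32 ± 0.20, adjusted p = 1.2e-21, at 5 µM and 1.09 ± 0.36, adjusted p = 0.0111, at 2.5 µM against control. The 2.5 µM call was lost without control replicate 2 (0.81, adjusted p = 0.0612, with 0.00427 to 0.0612 over its alternatives). FST had the highest fold change of the 35 genes at 5 µM, where INHBA was also higher.

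**Figure D2:**
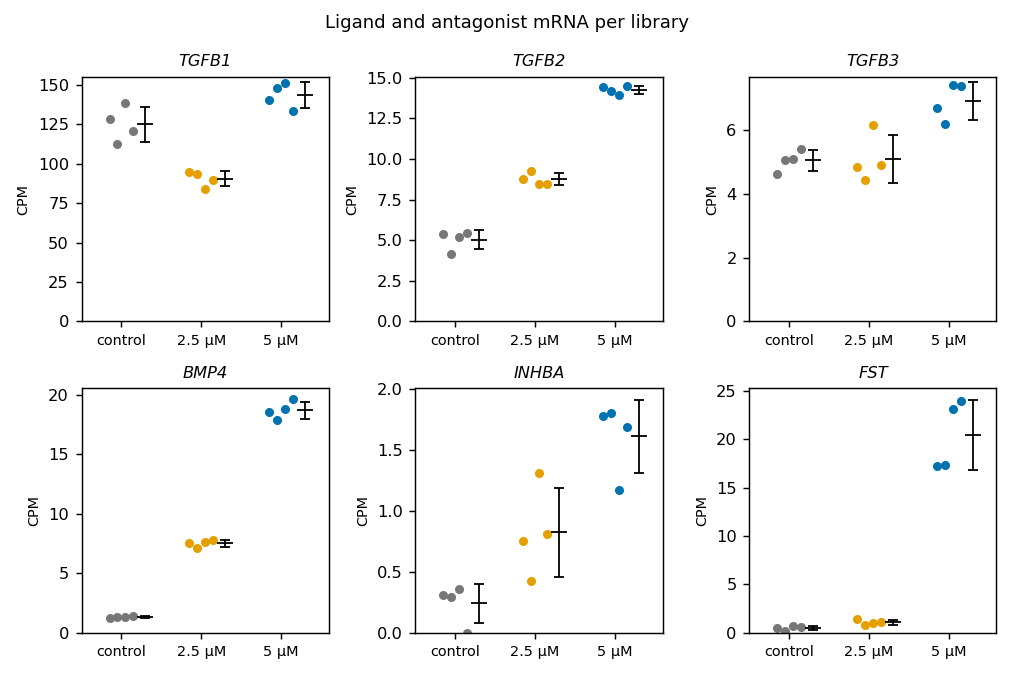
CPM per library (vertical axis from 0, 1 scale a panel) of 5 ligand genes and FST in control, 2.5 µM and 5 µM libraries, with mean ± SD (n = 4) as black bars. TGFB1 is lowest at 2.5 µM (mean 90.5 CPM), whereas TGFB2 and BMP4 increase at each dose and FST mostly at 5 µM.

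The latent binding proteins split by dose. LTBP1, which anchors latent TGF-beta to matrix, was at 44.0 ± 2.06 CPM in the controls, 52.9 ± 3.13 CPM at 2.5 µM and 90.4 ± 5.25 CPM at 5 µM. Its values did not overlap between any groups, and the 5 µM change was 1.04 ± 0.06, adjusted p = 4.02e-17. LTBP3, which binds latent TGF-beta in bone and lung, was at 14.1 ± 1.55 CPM in the controls, 17.9 ± 0.66 CPM at 2.5 µM and 20.0 ± 2.02 CPM at 5 µM. It was higher at each dose, with log2 fold changes of 0.35 ± 0.09, adjusted p = 0.0014, at 2.5 µM and 0.51 ± 0.09, adjusted p = 7.78e-06, at 5 µM. LTBP2, which does not bind latent TGF-beta, and LTBP4, an elastic fibre protein, fell at 2.5 µM. LTBP4 was at 63.0 ± 7.68 CPM in the controls, 44.6 ± 4.54 CPM at 2.5 µM and 62.7 ± 4.25 CPM at 5 µM, with changes of -0.49 ± 0.08, adjusted p = 5.52e-06, at 2.5 µM and -0.01 ± 0.08, adjusted p = 0.919, at 5 µM against control. The 5 µM value of LTBP4 had no settled sign: it was 0.13 with library size scaling and -0.16 with the GC correction, where it passed (adjusted p = 0.0136). LTBP2 was at 6.59 ± 0.742 CPM in the controls, 5.19 ± 0.339 CPM at 2.5 µM and 8.12 ± 0.944 CPM at 5 µM, with changes of -0.34 ± 0.13, adjusted p = 0.0235, at 2.5 µM and 0.31 ± 0.12, adjusted p = 0.0205, at 5 µM. Its 2.5 µM call was lost without control replicate 1 (adjusted p = 0.0521) or 3 (0.0662) and on leaving out 2.5 µM replicate 2 (0.0735). Its 5 µM call was lost without control replicate 2 (0.0963) or 4 (0.0508), in the absence of 5 µM replicate 2 (0.0809) or 4 (0.0644), and with the GC correction (0.01, adjusted p = 0.923).

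Of the 9 receptor and co-receptor genes, 6 were called higher and 2 lower at 5 µM against control. Of all genes tested, 38.7% were called higher and 39.4% lower. TGFBR2 (ENSG00000163513), the type II receptor that binds TGF-beta first, had 54.3, 51.5, 46.6 and 45.8 CPM in the controls, 68.8, 73.0, 74.7 and 67.6 CPM at 2.5 µM, and 81.6, 86.3, 78.7 and 77.0 CPM at 5 µM. The 3 groups did not overlap. Its log2 fold change was 0.52 ± 0.06, adjusted p = 7.04e-09, at 2.5 µM and 0.70 ± 0.06, adjusted p = 1.67e-12, at 5 µM against control. The further step between the doses, 0.19 ± 0.06, adjusted p = 0.00535, was not called with the GC correction (0.048, adjusted p = 0.432). TGFBR1, the type I receptor kinase that TGFBR2 activates, was at 48.2 ± 5.55 CPM in the controls, 41.7 ± 3.47 CPM at 2.5 µM and 41.9 ± 1.96 CPM at 5 µM, and all its groups overlapped. Its small fall, -0.21 ± 0.07, adjusted p = 0.0129, at 2.5 µM and -0.21 ± 0.07, adjusted p = 0.0106, at 5 µM, was lost at both doses with library size scaling (adjusted p = 0.0626 and 0.382) and without control replicate 1 (0.0818 and 0.059). At 5 µM the GC correction also ended it (0.152).

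TGFBR3 (ENSG00000069702), or betaglycan, is a co-receptor that presents TGF-beta, above all TGFB2, to TGFBR2. It had 18.9, 21.5, 18.6 and 20.6 CPM in the controls, 19.9, 23.5, 20.9 and 21.9 CPM at 2.5 µM, and 9.53, 10.7, 9.6 and 9.12 CPM at 5 µM. The 5 µM libraries lay below all 8 others, and the 2.5 µM and control values overlapped. The change was -1.04 ± 0.09, adjusted p = 3.59e-12, at 5 µM, 0.12 ± 0.08, adjusted p = 0.23, at 2.5 µM, and -1.15 ± 0.09, adjusted p = 4.06e-13, between the doses. At 5 µM TGFB2 was thus higher while this co-receptor was lower.

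Among the activin and BMP receptors, ACVR1B, the activin type I receptor, was at 24.2 ± 0.695 CPM in the controls, 37.0 ± 2.1 CPM at 2.5 µM and 41.3 ± 1.99 CPM at 5 µM, with 0.77 ± 0.07, adjusted p = 3.84e-12, at 5 µM. ACVR1, a type I receptor for BMPs and activin, was at 10.1 ± 1.00 CPM in the controls, 11.5 ± 1.11 CPM at 2.5 µM and 14.3 ± 1.46 CPM at 5 µM and rose at 5 µM only (0.51 ± 0.10, adjusted p = 4.69e-05, against 0.19 ± 0.11, adjusted p = 0.125, at 2.5 µM). That difference between the doses was itself called (0.32 ± 0.10, adjusted p = 0.00561). BMPR2, the BMP type II receptor, was at 21.9 ± 1.18 CPM in the controls, 23.2 ± 1.06 CPM at 2.5 µM and 33.4 ± 1.16 CPM at 5 µM. The 5 µM values lay above all others, with a change of 0.61 ± 0.07, adjusted p = 1.99e-09. BMPR1A, a BMP type I receptor, was at 11.8 ± 0.466 CPM in the controls, 12.7 ± 1.22 CPM at 2.5 µM and 14.8 ± 0.414 CPM at 5 µM, a change of 0.32 ± 0.09, adjusted p = 0.00208, at 5 µM. Its pseudogenes BMPR1AP1 and BMPR1AP2 had 642 and 45 counts over the 12 libraries, so reads shared between these copies make it uncertain. ACVR2A, an activin type II receptor, was at 1.91 ± 0.507 CPM in the controls, 2.32 ± 0.4 CPM at 2.5 µM and 2.98 ± 0.271 CPM at 5 µM (158 counts over the 5 µM libraries and 95 over the controls), with a change of 0.64 ± 0.20, adjusted p = 0.00384. In the same annotation, 6.35% of its exon bases lie opposite ORC4, which had 1375 counts over the 5 µM libraries and 646 over the controls. ACVR2B, its paralog, was at 1.57 ± 0.362 CPM in the controls, 1.01 ± 0.299 CPM at 2.5 µM and 2.05 ± 0.0857 CPM at 5 µM, lower at 2.5 µM (-0.62 ± 0.26, adjusted p = 0.0382) and not called at 5 µM (0.38 ± 0.22, adjusted p = 0.116). The 2.5 µM call of ACVR2B was lost without control replicate 1 (adjusted p = 0.123) or 3 (0.094), and on leaving out 2.5 µM replicate 1 (0.114), 3 (0.0506) or 4 (0.105). That call was also lost with DESeq2 (0.0773), no low count filter (0.0758), library size scaling (0.0533) and only the 2 groups compared (0.051).

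The receptor and common SMADs did not move together: at 5 µM SMAD3, SMAD1 and SMAD9 were called higher, and SMAD2 and SMAD4 lower. Beside them, 38.7% of all genes tested were called higher and 39.4% lower. SMAD9, which passed the filter through the 5 µM libraries alone, could only have shown a rise. SMAD2 (ENSG00000175387) and SMAD3 (ENSG00000166949) both carry TGF-beta and activin signals. SMAD2 had 171, 179, 168 and 169 CPM in the controls, 171, 182, 182 and 165 CPM at 2.5 µM, and 116, 115, 105 and 114 CPM at 5 µM. Its 5 µM libraries were below every other library, whereas the 2.5 µM and control values overlapped. SMAD2 changed by -0.61 ± 0.05, adjusted p = 1.52e-13, at 5 µM and by 0.03 ± 0.05, adjusted p = 0.639, at 2.5 µM. SMAD3 had 52.9, 50.6, 57.6 and 54.0 CPM in the controls, 79.3, 75.5, 82.1 and 87.0 CPM at 2.5 µM, and 93.6, 88.3, 89.6 and 87.6 CPM at 5 µM. All 3 groups were apart, with 5 µM highest. SMAD3 changed by 0.59 ± 0.06, adjusted p = 7.16e-11, at 2.5 µM and 0.74 ± 0.06, adjusted p = 7.63e-14, at 5 µM against control. The 2 genes therefore moved in opposite directions at 5 µM.

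SMAD4 (ENSG00000141646), the common partner of all receptor SMADs, had 124, 139, 125 and 121 CPM in the controls, 109, 119, 115 and 119 CPM at 2.5 µM, and 84.2, 87.9, 79.3 and 83.1 CPM at 5 µM. The groups did not overlap, and 5 µM was lowest. The change at 5 µM was -0.61 ± 0.05, adjusted p = 2.39e-12. The smaller one at 2.5 µM, -0.14 ± 0.05, adjusted p = 0.0238, was lost without control replicate 2 (adjusted p = 0.15), without 2.5 µM replicate 1 (0.105) and with library size scaling (0.136).

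Of the BMP SMADs, SMAD1 was at 12.5 ± 1.01 CPM in the controls, 9.54 ± 1.13 CPM at 2.5 µM and 14.5 ± 1.07 CPM at 5 µM. It was lower at 2.5 µM (-0.38 ± 0.10, adjusted p = 0.00206), where the values did not overlap with the controls. At 5 µM it was higher (0.21 ± 0.10, adjusted p = 0.0471) with overlap, and this call was lost without control replicate 1, 2 or 4 (adjusted p = 0.157, 0.0578 and 0.113). It was also lost without 2.5 µM replicate 1, 2 or 4 (0.06, 0.0572 and 0.0607) and without 5 µM replicate 1 or 3 (0.126 and 0.125). SMAD5 was at 76.3 ± 6.28 CPM in the controls, 81.9 ± 6.86 CPM at 2.5 µM and 69.9 ± 2.11 CPM at 5 µM and was not called against control at 5 µM (-0.13 ± 0.06, adjusted p = 0.056) or at 2.5 µM (0.10 ± 0.06, adjusted p = 0.163). SMAD5 did pass at 5 µM without control replicate 3 (-0.19, adjusted p = 0.00634) or 4 (0.023), and on leaving out 2.5 µM replicate 2, 3 or 4 (0.0483, 0.036 and 0.0309). It also passed with no low count filter (0.0327). SMAD9 (ENSG00000120693) had 0.156, 0.366, 0.179 and 0.0846 CPM in the controls, 0.0757, 0.141, 0 and 0.202 CPM at 2.5 µM, and 1.78, 2.4, 2.2 and 1.5 CPM at 5 µM. Only the 5 µM libraries held more than a few counts, 102 in all, against 6 over the 2.5 µM libraries and 10 over the controls. Its change at 5 µM was 3.21 ± 0.38, adjusted p = 2.92e-09.

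**Figure D3:**
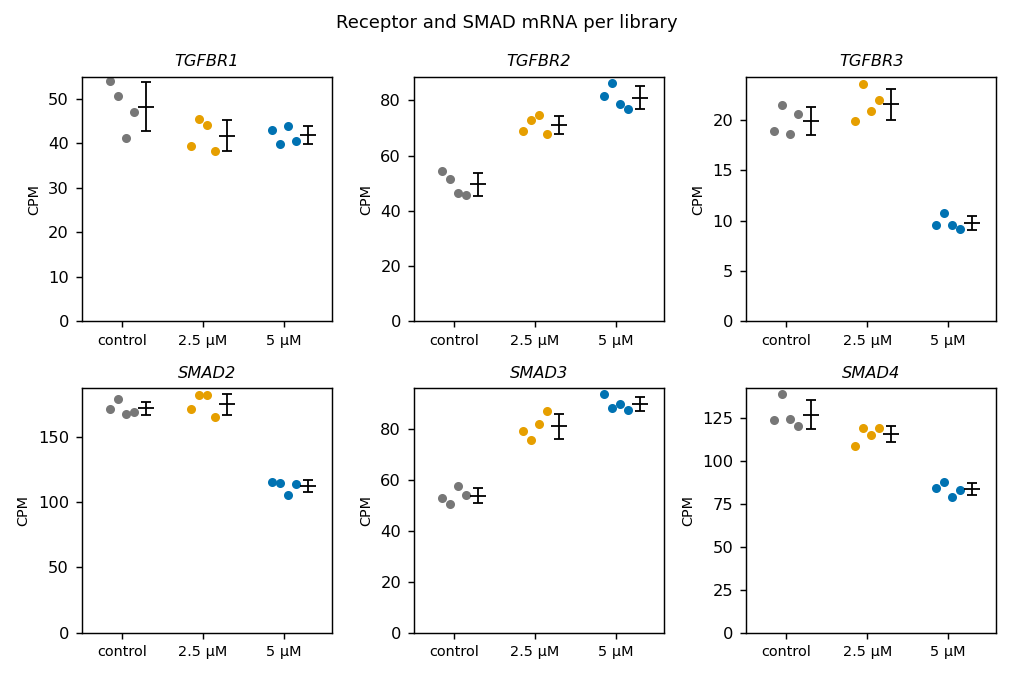
CPM per library (vertical axis from 0, 1 scale a panel) of TGFBR1, TGFBR2, TGFBR3, SMAD2, SMAD3 and SMAD4 in control, 2.5 µM and 5 µM libraries, with mean ± SD (n = 4) as black bars. TGFBR2 and SMAD3 are higher at both doses, while TGFBR3, SMAD2 and SMAD4 are lowest at 5 µM.

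SMAD6, SMAD7, BAMBI, PMEPA1 and KLF10, targets that feed back on the pathway, were called higher at both doses. Of all genes tested, 30.7% were called higher at 2.5 µM and 38.7% at 5 µM against control. SMAD6 (ENSG00000137834), an inhibitory SMAD that acts mainly on BMP signals, had 26.6, 24.9, 27.7 and 32.7 CPM in the controls, 62.6, 66.6, 58.4 and 65.4 CPM at 2.5 µM, and 57.6, 57.9, 56.9 and 56.7 CPM at 5 µM. Treated libraries were all above the controls. The change was 1.18 ± 0.07, adjusted p = 4.02e-16, at 2.5 µM and 1.03 ± 0.07, adjusted p = 3.05e-15, at 5 µM against control. Between the doses it was -0.15 ± 0.06, adjusted p = 0.043, a call lost in 13 of 21 alternatives. Among these were RLE factors (adjusted p = 0.135), leaving out 2.5 µM replicate 1, 2 or 4 (0.0524, 0.113 and 0.105), and leaving out any 5 µM replicate (0.07 to 0.102). SMAD7 (ENSG00000101665), which blocks type I receptors of both branches, had 39.0, 44.3, 40.3 and 42.5 CPM in the controls, 58.4, 55.4, 64.3 and 60.2 CPM at 2.5 µM, and 74.6, 76.9, 76.0 and 78.7 CPM at 5 µM. Its groups were apart and increased with dose. Changes were 0.52 ± 0.06, adjusted p = 4.92e-09, at 2.5 µM and 0.88 ± 0.06, adjusted p = 2.91e-15, at 5 µM.

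BAMBI (ENSG00000095739), a pseudoreceptor without a kinase domain, had 12.5, 13.5, 12.8 and 15.7 CPM in the controls, 28.4, 29.4, 28.9 and 27.4 CPM at 2.5 µM, and 51.9, 49.1, 62.1 and 54.6 CPM at 5 µM. The groups were apart, with each dose above the one before. Changes were 1.07 ± 0.09, adjusted p = 1.48e-12, at 2.5 µM, 2.00 ± 0.08, adjusted p = 4.23e-21, at 5 µM against control and 0.93 ± 0.07, adjusted p = 4.57e-13, between the doses. PMEPA1, a membrane protein that sequesters receptor SMADs, was at 51.8 ± 6.69 CPM in the controls, 85.4 ± 4.44 CPM at 2.5 µM and 104 ± 5.03 CPM at 5 µM, and KLF10, an early TGF-beta response factor, at 47.7 ± 3.77 CPM in the controls, 73.4 ± 4.74 CPM at 2.5 µM and 85.4 ± 3.21 CPM at 5 µM. Neither gene's groups overlapped, and at 5 µM they changed by 1.01 ± 0.07, adjusted p = 5.18e-15, and by 0.84 ± 0.06, adjusted p = 2.12e-14. TGFBI, a secreted matrix protein named for its induction by TGF-beta, was at 322 ± 32.0 CPM in the controls, 329 ± 10.9 CPM at 2.5 µM and 443 ± 9.99 CPM at 5 µM, with 0.46 ± 0.05, adjusted p = 6.99e-10, at 5 µM. At 2.5 µM TGFBI was not called (0.03 ± 0.05, adjusted p = 0.61). For SMAD7, PMEPA1 and KLF10 the step between the doses was called (0.36, 0.28 and 0.22) but not with the GC correction (adjusted p = 0.0669, 0.323 and 0.132).

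The corepressors did not move as one group. SKI (ENSG00000157933), which holds SMAD complexes inactive, had 43.8, 45.2, 47.9 and 53.8 CPM in the controls, 17.1, 17.7, 18.1 and 15.7 CPM at 2.5 µM, and 21.7, 19.9, 22.6 and 22.1 CPM at 5 µM. All treated libraries were below the controls, and 2.5 µM was lowest. Changes were -1.47 ± 0.08, adjusted p = 2e-17, at 2.5 µM and -1.14 ± 0.08, adjusted p = 1.78e-15, at 5 µM. The partial return between the doses, 0.33 ± 0.08, adjusted p = 0.000613, did not pass after GC correction (adjusted p = 0.295). SKIL, its paralog, was at 22.6 ± 1.98 CPM in the controls, 25.6 ± 2.73 CPM at 2.5 µM and 25 ± 0.939 CPM at 5 µM and not called at 2.5 µM (0.17 ± 0.08, adjusted p = 0.0669) or 5 µM (0.14 ± 0.08, adjusted p = 0.123), although it passed as higher at 5 µM with library size scaling (0.27, adjusted p = 0.00474) and the GC correction (0.42, 7.31e-07). At 5 µM SKIL also passed with upper-quartile factors (0.0407) and a mean log2 CPM of at least 1 (0.0422). At 2.5 µM SKIL passed without control replicate 1 (0.0358) and without 2.5 µM replicate 4 (0.0166). It passed there as well with library size scaling (0.027) and the GC correction (0.0162). TGIF1, a homeodomain repressor of SMAD2 and SMAD3 complexes, was at 69.3 ± 3.78 CPM in the controls, 98.0 ± 1.25 CPM at 2.5 µM and 97.5 ± 4.41 CPM at 5 µM, and its paralog TGIF2 at 26.4 ± 3.35 CPM in the controls, 38.0 ± 1.47 CPM at 2.5 µM and 60.6 ± 4.08 CPM at 5 µM. TGIF1 changed by 0.49 ± 0.05, adjusted p = 2.36e-10, and TGIF2 by 1.20 ± 0.07, adjusted p = 2.69e-16, at 5 µM. Their pseudogenes TGIF1P1 and TGIF2P1 had 75 and 4 counts over the 12 libraries.

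**Figure D4:**
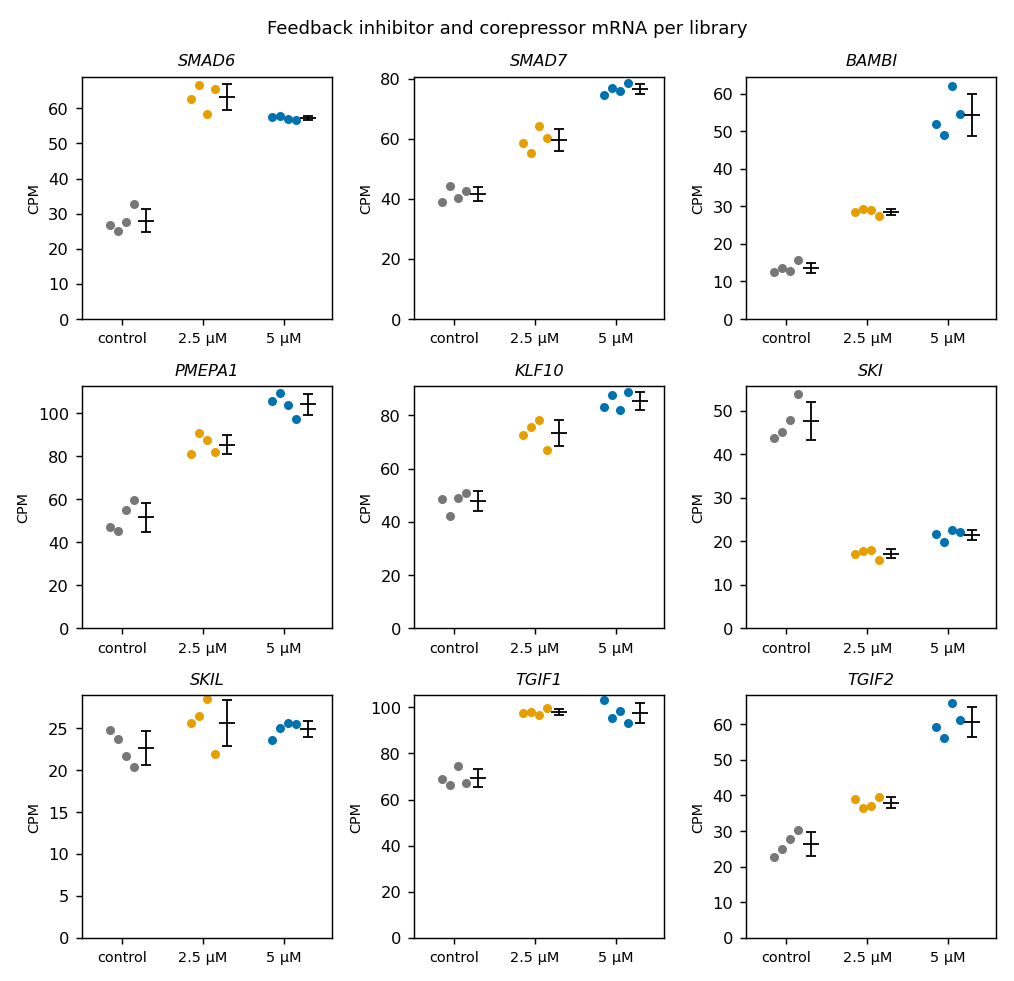
CPM per library (vertical axis from 0, 1 scale a panel) of 9 inhibitors, corepressors and feedback genes in control, 2.5 µM and 5 µM libraries, with mean ± SD (n = 4) as black bars. SMAD6, SMAD7, BAMBI, PMEPA1, KLF10, TGIF1 and TGIF2 are higher at both doses, SKI is lower at both, and SKIL overlaps between groups.

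The 250 bases before the gene start are shown for SMAD6, SMAD7, BAMBI, BMP4 and FST, picked after their rises were seen, because SMAD proteins are known to bind short motifs near target genes. The sequences are from RefSeq (GRCh38.p14), printed on the gene's strand, and capitals mark GTCTAGAC, CAGAC or its reverse complement GTCTG, and GGCGCC. SMAD6 lies at chr15:66701986-66702235 (plus strand), SMAD7 at chr18:48950966-48951215 (minus), BAMBI at chr10:28677271-28677520 (plus), BMP4 at chr14:53955051-53955300 (minus) and FST at chr5:53480379-53480628 (plus). For SMAD7 and BMP4, which have 3 listed starts each, the first is shown.
SMAD6: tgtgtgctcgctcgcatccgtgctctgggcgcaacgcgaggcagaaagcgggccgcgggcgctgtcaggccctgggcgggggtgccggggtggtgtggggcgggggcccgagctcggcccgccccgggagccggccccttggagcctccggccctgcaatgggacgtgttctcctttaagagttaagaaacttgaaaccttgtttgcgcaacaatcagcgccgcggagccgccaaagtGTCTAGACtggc
SMAD7: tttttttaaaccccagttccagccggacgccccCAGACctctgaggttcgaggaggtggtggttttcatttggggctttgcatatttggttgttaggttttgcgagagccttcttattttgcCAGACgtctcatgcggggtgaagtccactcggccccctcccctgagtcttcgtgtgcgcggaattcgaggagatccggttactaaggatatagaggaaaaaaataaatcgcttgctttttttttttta
BAMBI: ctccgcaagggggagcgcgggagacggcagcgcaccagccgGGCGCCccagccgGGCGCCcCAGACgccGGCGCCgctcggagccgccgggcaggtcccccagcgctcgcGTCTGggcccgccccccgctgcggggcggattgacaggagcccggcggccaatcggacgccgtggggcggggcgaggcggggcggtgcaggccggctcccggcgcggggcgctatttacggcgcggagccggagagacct
BMP4: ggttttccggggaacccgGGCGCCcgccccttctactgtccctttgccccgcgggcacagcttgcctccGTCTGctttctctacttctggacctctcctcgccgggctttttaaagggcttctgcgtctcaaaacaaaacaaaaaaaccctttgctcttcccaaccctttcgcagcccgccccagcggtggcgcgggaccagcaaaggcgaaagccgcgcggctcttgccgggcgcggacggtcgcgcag
FST: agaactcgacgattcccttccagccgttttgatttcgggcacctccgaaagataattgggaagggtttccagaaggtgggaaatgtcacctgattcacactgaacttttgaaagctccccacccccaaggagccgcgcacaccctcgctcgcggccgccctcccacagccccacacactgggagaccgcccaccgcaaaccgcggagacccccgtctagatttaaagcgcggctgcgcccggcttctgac

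The palindrome GTCTAGAC was in the SMAD6 window, beginning 12 bases before the start, and in none of the other member windows. Of 35116 windows of this length for all genes, 64 (0.182%) held it. CAGAC, which GTCTAGAC holds only in part, was in 28 of 72 windows of 33 members (38.9%), beside 38.0% of all windows, searched on both strands. GGCGCC was in 18 of 72 (25%), beside 16.4% of all, with a median GC content of 63.2% in the member windows and 58% in all. BAMBI held GGCGCC 3 times and CAGAC or GTCTG 2 times, whereas the FST window held none of these letters. A match is a description of the sequence, and binding was not measured.

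By dose, 13 of the 35 genes were called higher at 2.5 µM and higher again at 5 µM: ACVR1B, BAMBI, BMP4, FST, INHBA, KLF10, LTBP1, PMEPA1, SMAD3, SMAD7, TGFB2, TGFBR2 and TGIF2. Another 6 were not called at 2.5 µM and were higher at 5 µM than in both other groups (ACVR1, BMPR1A, BMPR2, SMAD9, TGFB3 and TGFBI). How many of all genes share these patterns was not computed. For single steps, 30.7% of all genes were called higher at 2.5 µM against control and 33.6% higher between the doses. INHBA and FST among the 13, and SMAD9 among the 6, passed the filter through treated libraries alone, with 0 control libraries over its minimum. The FST call at 2.5 µM was lost without control replicate 2 (adjusted p = 0.0612). Of the 13, KLF10, PMEPA1, SMAD7 and TGFBR2 lost the call between the doses with the GC correction (adjusted p = 0.132, 0.323, 0.0669 and 0.432). ACVR1B (-0.061) and SMAD3 (-0.050) changed sign there and were not called (adjusted p = 0.343 and 0.338). TGFB1, SMAD1 and LTBP2 were called lower at 2.5 µM and higher at 5 µM than in control. None of these 3 calls at 5 µM was kept in every alternative: with the GC correction TGFB1 was -0.016 and LTBP2 0.013, and the SMAD1 call was lost in 10 of 21 alternatives. LTBP3 and TGIF1 were higher at 2.5 µM with no further call between the doses. Of the 30 calls for the step between the doses, 20 were kept in every alternative that tested the gene, against 26 of 31 for 5 µM and 19 of 24 for 2.5 µM against control. For ACVR1B that step was lost without 2.5 µM replicate 1, 2 or 3 (adjusted p = 0.0674, 0.157 and 0.0689) and 5 µM replicate 1 or 3 (0.0632 and 0.0914). For BMPR1A it was lost without 2.5 µM replicate 1 or 4 (0.104 and 0.118) and 5 µM replicate 1 or 2 (0.053 and 0.0531). For SMAD3 it was lost without 2.5 µM replicate 1 or 2 (0.0574 and 0.104) and 5 µM replicate 1 (0.0511).

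A wider list of 69 other genes of the pathway, of which 54 were tested, held calls in both directions. At 5 µM against control 24 were called higher (44.4%) and 22 lower (40.7%), beside 38.7% and 39.4% of all genes tested. The median log2 fold change was 0.03 beside -0.01 for all genes. Over the alternatives these counts ran from 21 to 31 higher and from 17 to 24 lower. At 2.5 µM 19 were higher (35.2%) and 21 lower (38.9%), beside 30.7% and 28.5% of all genes, with a median of 0.01 beside 0.02. Between the doses 27 were higher (50%) and 19 lower (35.2%), beside 33.6% and 34.8% of all genes. The median there was 0.21 beside -0.01 for all genes.

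The ID genes, direct BMP targets that block differentiation factors, moved apart. ID1 had 301, 286, 319 and 288 CPM in the controls, 183, 192, 163 and 193 CPM at 2.5 µM, and 112, 102, 99.6 and 104 CPM at 5 µM. ID3 had 266, 257, 272 and 278 CPM in the controls, 182, 174, 169.8 and 198 CPM at 2.5 µM, and 121, 119.7, 112 and 109 CPM at 5 µM. Both fell at each dose with no overlap between groups. At 5 µM against control the log2 fold change was -1.52 ± 0.05, adjusted p = 7.21e-23, for ID1 and -1.22 ± 0.05, adjusted p = 6.52e-21, for ID3. ID2 had 6.41, 7.18, 6.89 and 6.94 CPM in the controls, 20.6, 21.5, 26.2 and 24.9 CPM at 2.5 µM, and 87.9, 76.5, 97.7 and 99.0 CPM at 5 µM. It rose at each dose with no overlap, by 1.76 ± 0.11, adjusted p = 3.82e-15, at 2.5 µM and 3.72 ± 0.10, adjusted p = 1.4e-25, at 5 µM.

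CCN2, a matricellular protein induced by TGF-beta, had 0.781, 1.54, 1.16 and 3.13 CPM in the controls, 4.09, 3.73, 3.78 and 3.90 CPM at 2.5 µM, and 26.1, 28.3, 41.8 and 31.7 CPM at 5 µM. Groups were apart, with 4.29 ± 0.24, adjusted p = 3.25e-10, at 5 µM.

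Of the wider list, the other genes with the smallest p at 5 µM were FSTL1, FURIN, RHOB and INHBE. FSTL1, a secreted relative of follistatin, was at 23.7 ± 1.78 CPM in the controls, 83.7 ± 1.98 CPM at 2.5 µM and 136 ± 6.63 CPM at 5 µM, a change of 2.52 ± 0.06, adjusted p = 1.78e-27, at 5 µM. FURIN, the protease that cleaves TGF-beta precursors, was at 42.3 ± 4.26 CPM in the controls, 72.7 ± 5.88 CPM at 2.5 µM and 173 ± 5.59 CPM at 5 µM, with 2.03 ± 0.06, adjusted p = 2.06e-24. RHOB, a small GTPase, was at 369 ± 15.9 CPM in the controls, 418 ± 10.9 CPM at 2.5 µM and 165 ± 7.66 CPM at 5 µM, higher at 2.5 µM (0.18 ± 0.04, adjusted p = 0.00061) and lower at 5 µM (-1.16 ± 0.05, adjusted p = 1.39e-21). INHBE, a liver activin subunit, was at 14.2 ± 1.59 CPM in the controls, 1.45 ± 0.176 CPM at 2.5 µM and 0.851 ± 0.187 CPM at 5 µM and fell at both doses (-4.06 ± 0.17, adjusted p = 4.76e-21, at 5 µM).

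**Figure D5:**
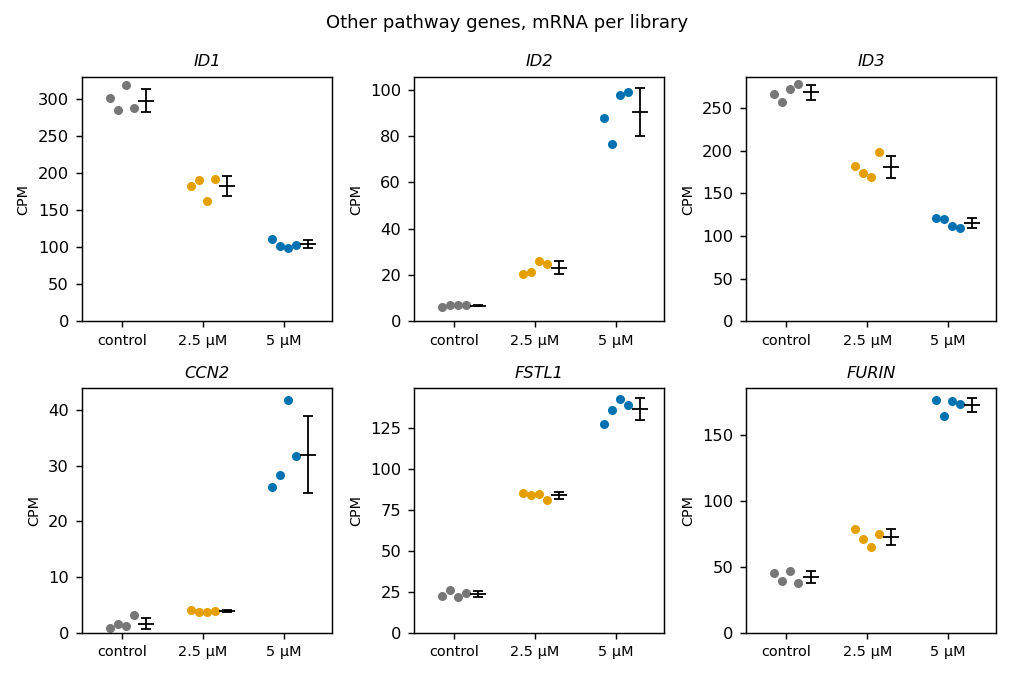
CPM per library (vertical axis from 0, 1 scale a panel) of ID1, ID2, ID3, CCN2, FSTL1 and FURIN in control, 2.5 µM and 5 µM libraries, with mean ± SD (n = 4) as black bars. ID1 and ID3 decrease at each dose, and ID2, CCN2, FSTL1 and FURIN increase at each dose.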

How the data were processed

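Poly-A RNA of 12 samples was made into stranded libraries (TruSeq) and sequenced on a NextSeq500, per the labels' protocols. The authors deposited 1 table of raw read counts per gene. The submitters' processing notes list, for build GRCh37, STAR 2.4.1d and Bowtie2 2.2.4, featureCounts 1.4.6, edgeR 3.8.6 and cutadapt 1.7.1, with no roles. The strand setting and the treatment of multi-mapped reads are not given.

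Counts were filtered with edgeR 4.0.16 (R 4.3.3; minimum 0.759 CPM in at least 4 libraries), TMM-scaled and fitted by quasi-likelihood over all 3 groups (9 residual degrees of freedom). P-values were Benjamini-Hochberg adjusted over 16839 genes. The procedure was tested on simulated data in which few genes were changed. In these data 78.2% of genes were called at 5 µM against control, a setting that the simulation did not cover. No 2 libraries were identical. Errors are the spread between libraries.

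The genes and lists were chosen with earlier results of these data known. All 35 genes are named. Of 69 other pathway genes, the 6 with the smallest p at 5 µM and ID1, ID2, ID3 and CCN2 are named, and 1 further gene of the rule is not reported here. Hepatic, fibroblast, endothelial and blood marker lists were checked. The 21 alternatives were other scalings and filters, DESeq2 1.42.0, the 2 groups alone, a replicate block, a GC correction (97.9% of genes had a value) and leaving out each library.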

Additional observations from a re-analysis of the deposited data

Results flagged for a closer look

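In the 5 µM group, replicate 4 had the lowest SMAD5 level, 66.8 CPM, where the other 3 libraries lay between 70.6 and 71.4 CPM. The same library had the lowest LTBP4 level of its group, 56.4 CPM, where the other 3 lay between 64.0 and 65.3 CPM. Each was far from the rest relative to the group's range (Dixon's ratio test at the 95% level). Of 129 groups of 4 libraries examined for the named genes, 2 stood out in this way, and chance flags about 1 in 20 groups.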

How the results depend on the processing

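Over all alternatives, 24 to 28 of the 35 genes were called higher and 4 to 6 lower at 5 µM against control, and 15 to 17 higher and 5 to 8 lower at 2.5 µM. Between the doses 21 to 27 were higher and 3 to 5 lower. The counts that moved by over 1.5 times were the lower calls: 5 with library size scaling at 2.5 µM against control, 3 with it between the doses, and 5 without control replicate 1 at 2.5 µM (range 5 to 8 with 1 library left out). Among values for single genes under an alternative, 2549 kept direction and side of the threshold, 73 lost the call, 24 gained it and 52 changed sign. The cause was not tested. Genes absent under the stricter filter gave no value there. Counts limit INHBA, SMAD9, ACVR2A, ACVR2B and FST in the groups where they were low.

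Log2 fold changes that changed sign follow. At 5 µM against control, LTBP4 was -0.0090 and became 0.021 with RLE factors, 0.040 with upper-quartile factors, 0.13 with library size scaling, 0.036 with a mean log2 CPM of at least 1, 0.021 with DESeq2, 0.010 with only the 2 groups compared and -0.071 to 0.040 with 1 library left out. SMAD5 was -0.13 and became 0.0046 with library size scaling and 0.055 with the GC correction. TGFB1 was 0.20 and became -0.016 with the GC correction. At 2.5 µM against control, SMAD2 was 0.027 and became -0.0064 to 0.046 with 1 library left out. TGFB3 was 0.0091 and became -0.058 with the GC correction and -0.091 to 0.070 with 1 library left out. TGFBI was 0.032 and became -0.033 with the GC correction and -0.013 to 0.066 with 1 library left out. Between the doses, ACVR1B was 0.16 and became -0.061 with the GC correction. LTBP3 was 0.15 and became -0.034 with the GC correction. SKIL was -0.035 and became 0.0029 with RLE factors, 0.019 with upper-quartile factors, 0.055 with library size scaling, 0.015 with a mean log2 CPM of at least 1, 0.0025 with DESeq2, 0.23 with the GC correction and -0.10 to 0.012 with 1 library left out. SMAD3 was 0.15 and became -0.050 with the GC correction. TGFBR1 was 0.0039 and became -0.012 with no low count filter and -0.035 to 0.040 with 1 library left out. TGIF1 was -0.0081 and became 0.029 with RLE factors, 0.046 with upper-quartile factors, 0.082 with library size scaling, 0.042 with a mean log2 CPM of at least 1, 0.029 with DESeq2, 0.0042 with only the 2 groups compared, 0.044 with the GC correction and -0.031 to 0.023 with 1 library left out.

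Same-numbered libraries did not deviate together (correlations of -0.130 to 0.0745), so the numbers share no more than a label. With the replicate block, SMAD1 at 5 µM against control (0.22, adjusted p = 0.0549) and SMAD6 between the doses (-0.14, 0.0517) were not called.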
